A study of Mus musculus with 2 samples.

Results

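The small leucine-rich proteoglycans are secreted matrix proteins, and 9 of their genes (Dcn, Ogn, Bgn, Fmod, Lum, Omd, Aspn, Kera and Prelp) were followed here in mouse tumours, out of 20852 genes measured. They were found on the array by gene symbol or an older alias, and the set was chosen by the measured enriched-minus-standard differences, in which Ogn and Dcn lay low and other matrix genes high. All 9 had at least 1 probe, 12 probes in all, and every probe was well above background on both arrays. The tumours grew under the skin of C57BL/6 mice from injected Panc02 cells, a mouse pancreatic carcinoma line. One group lived in an enriched environment, which offers animals more stimulation, and the other in a standard environment, and both carried the same tumour cells. Mice entered their housing at 3 weeks of age and were kept there for 5 weeks after the injection. Tumour RNA of 6 mice per housing was mixed before labelling, and 1 one-colour array was run on each of the 2 mixtures. There were thus no replicates, nothing could be tested between housings, and every value describes these 2 pools.

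Small leucine-rich proteoglycans have a curved core of leucine-rich repeats that lies on collagen fibrils, and many carry chondroitin, dermatan or keratan sulphate chains. They set how thick and how evenly spaced collagen fibrils become, and some also hold growth factors such as TGF-beta in the matrix. In tumours they are mostly products of fibroblasts and other stromal cells. Many of their genes lie side by side in the genome, in clusters that arose by duplication.

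A level below is log2 of the processed spot signal after division by the 75th percentile of that array. A difference is the level in the enriched minus that in the standard environment pool. Each difference carries 1 technical error, calculated from the error that the scanner software gave for each spot. This error leaves out the spread between probes of a gene and the spread between mice. Across the 9 genes 7 lay lower in the enriched environment pool and 2 higher, and their median difference was -0.69, beside 0.03 for all measured genes. Lower by 2-fold or more were 4 genes, Kera, Fmod, Ogn and Dcn, and none was 2-fold higher. Over all genes 9.46% were lower by 2-fold or more, 5.71% higher by as much and 47.7% below 0. Because the genes were chosen with this contrast in view, nothing is read from these shares. Nearest to the 2-fold line were Dcn at -1.03 on the far side and Bgn at -0.69 on the near side.

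The depth of the arrays was similar. Leaving out controls, each array had 43379 spots, of which 77.4% in the enriched and 77.2% in the standard environment pool exceeded background clearly, and none was saturated. The 75th percentile of intensity was 984 on the enriched and 753 on the standard environment array, a log2 ratio of 0.39, by which all differences would be higher without scaling. Without scaling, 2904 genes passed 2-fold upward and 1211 downward, against 1191 upward and 1972 downward with it. All 7 markers of carcinoma epithelium were well above background on both arrays and 1.59 to 2.43 higher in the enriched environment pool. The 10 skeletal muscle markers were all lower there by more than 2-fold, at a median difference of -7.80, and took 0.0933% of the summed signal in the enriched and 3.48% in the standard environment pool. In bulk tumour RNA, fewer cells of a type and less RNA per cell cannot be told apart.

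The 250 bases before the start site are shown for the 3 genes that lay lowest and for Aspn, which lay highest and is in the same cluster as Ogn. They are on the plus strand of GRCm38.p6, from RefSeq, whose table held such a stretch for 7 of the 9 genes. Capitals mark any of 5 motifs searched on both strands. These were the TATA box with the letters TATAAA, the CCAAT box, the E-box with the letters CAGCTG, the AP-1 site with the letters TGANTCA and the MCAT element with the letters CATTCC. The only matches that overlap are the 2 TATA boxes of Ogn.
Kera, chr10:97606955-97607204: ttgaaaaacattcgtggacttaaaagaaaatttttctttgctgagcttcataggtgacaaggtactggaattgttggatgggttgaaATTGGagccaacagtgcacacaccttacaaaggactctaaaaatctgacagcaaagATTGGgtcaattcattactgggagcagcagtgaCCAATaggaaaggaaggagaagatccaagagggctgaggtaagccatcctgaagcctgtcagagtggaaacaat
Fmod, chr1:134037004-134037253: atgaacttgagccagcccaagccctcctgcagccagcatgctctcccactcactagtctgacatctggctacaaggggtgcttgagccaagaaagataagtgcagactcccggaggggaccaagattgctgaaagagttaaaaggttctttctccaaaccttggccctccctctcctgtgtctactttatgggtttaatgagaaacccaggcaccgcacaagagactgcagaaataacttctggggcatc
Ogn, chr13:49607765-49608014: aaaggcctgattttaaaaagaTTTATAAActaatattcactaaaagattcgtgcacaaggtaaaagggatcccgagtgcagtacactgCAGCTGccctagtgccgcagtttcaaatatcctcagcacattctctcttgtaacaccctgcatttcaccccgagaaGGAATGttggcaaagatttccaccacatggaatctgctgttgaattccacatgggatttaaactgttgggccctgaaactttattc
Aspn, chr13:49544193-49544442: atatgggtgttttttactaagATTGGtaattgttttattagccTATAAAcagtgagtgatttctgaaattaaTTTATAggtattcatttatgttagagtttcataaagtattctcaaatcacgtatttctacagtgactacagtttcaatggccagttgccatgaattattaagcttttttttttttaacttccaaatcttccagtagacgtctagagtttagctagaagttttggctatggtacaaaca

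No motif of the 5 occurred in all 3 of the lowest genes. Kera held 3 CCAAT boxes, beginning 163, 107 and 74 bases before the start site. Ogn held 2 TATA boxes at 229 and 227 bases before it, an E-box at 162 bases and an MCAT element at 86 bases. Aspn held a CCAAT box at 229 bases and TATA boxes at 207 and 178 bases, and Fmod held none of the 5. Over 32851 promoters of this length, 33.9% held a CCAAT box, 12.4% a TATA box, 13.0% the E-box, 12.6% the MCAT element and 6.75% the AP-1 site. These matches are letters in a window and were not set against the differences by any test.

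Among the class II genes, some of which encode keratan sulphate carriers, Kera lay furthest apart. Kera encodes keratocan, known for the transparent stroma of the cornea. Its probe, at chr10:97176083-97176142 on mm7, had an intensity of 23.0 ± 3.90 in the enriched and 478 ± 47.9 in the standard environment pool (software error of 1 spot). The levels were -5.42 in the enriched and -0.65 in the standard environment pool, a difference of -4.77 ± 0.28, or 27.2-fold lower. Its enriched environment level lay 0.78 above the lowest level well above background on that array, so this spot is near the limit of detection, and the size depends on how background is removed. With the normexp background correction the difference was -3.09, and -2.91 with quantile scaling as well.

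**Figure D1:**
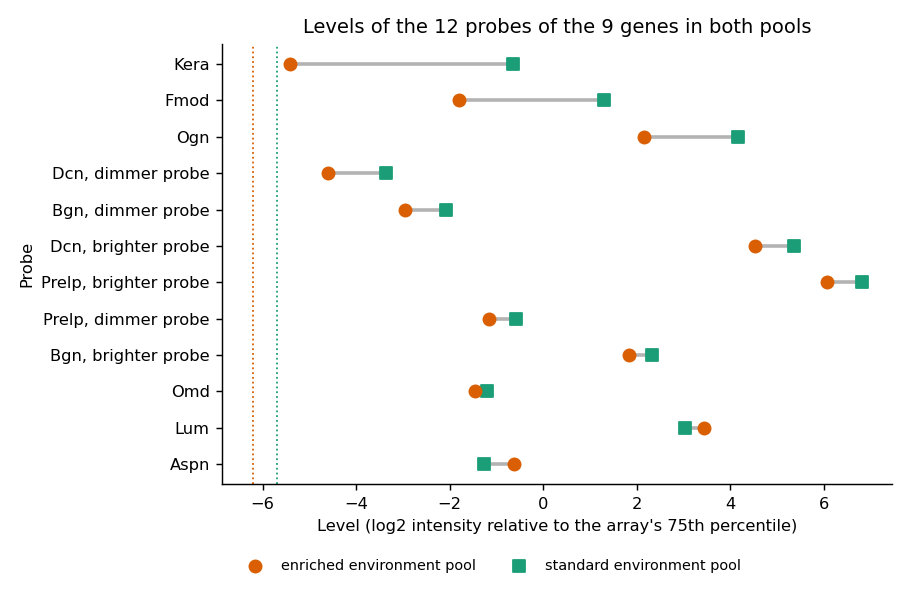
Levels of the 12 probes (rows) in the enriched (circles) and standard (squares) environment pool, in log2 of intensity over the array's 75th percentile; dotted lines give the lowest level well above background on each array, -6.20 for the enriched and -5.68 for the standard environment pool. Kera reaches -5.42 in the enriched environment pool, close to its dotted line, and the Lum and Aspn circles lie to the right of their squares.

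Fmod encodes fibromodulin, which binds type I collagen and takes part in the early growth of fibrils in tendon. Its probe at chr1:133937206-133937265 had an intensity of 284 ± 28.5 in the enriched and 1868 ± 187 in the standard environment pool. On the level scale this was -1.79 in the enriched and 1.31 in the standard environment pool, a difference of -3.11 ± 0.20, or 8.61-fold lower. Both levels were far above the lowest level well above background.

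Lum, by contrast, was slightly higher. Lumican shares a collagen binding region with fibromodulin and is abundant in many connective tissues. The Lum probe at chr10:97135063-97135122 had an intensity of 10630 ± 1063 in the enriched and 6186 ± 619 in the standard environment pool, and levels of 3.43 and 3.04 in the same order. The difference was 0.40 ± 0.20, or 1.32-fold higher, close to 2 technical errors, and it stayed above 0 in all 14 alternative processings.

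The remaining class II genes lay between these. Prelp, a heparin-binding member found near basement membranes, had a brighter probe at chr1:133800142-133800201 with an intensity of 66008 ± 6601 in the enriched and 84945 ± 8495 in the standard environment pool. Its dimmer probe at chr1:133804829-133804888 had 440 ± 44.2 in the enriched and 507 ± 50.8 in the standard environment pool. The probes gave -0.75 and -0.59, with a mean of -0.67 ± 0.14, so both lay on the same side. Omd encodes osteomodulin (osteoadherin), a bone matrix protein that binds hydroxyapatite. Its probe at chr13:49076355-49076414 had an intensity of 360 ± 36.1 in the enriched and 326 ± 32.7 in the standard environment pool. After scaling its levels were -1.45 in the enriched and -1.21 in the standard environment pool, a difference of -0.24 ± 0.20. Omd was the only one of the 9 genes whose direction turned, to 0.15 without scaling, where the median of all genes was 0.42.

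In class I, which holds the chondroitin and dermatan sulphate carriers decorin and biglycan and their relative asporin, Dcn and Bgn lay lower and Aspn higher. Dcn encodes decorin, which limits the lateral growth of type I collagen fibrils and binds TGF-beta. The brighter Dcn probe, at chr10:97080086-97080145, had an intensity of 22866 ± 2287 in the enriched and 31188 ± 3119 in the standard environment pool, and levels of 4.54 and 5.37 in the same order, a difference of -0.83 ± 0.20, or 1.78-fold lower. The dimmer one, at chr10:97043200-97043259 and 36826 bases away, was designed on a cDNA clone that the file calls unclassifiable, and had 40.8 ± 5.18 in the enriched and 73.4 ± 8.01 in the standard environment pool, a difference of -1.23 ± 0.24. The dimmer probe passed 2-fold and the brighter one did not. The mean of both, -1.03 ± 0.16, passed it in 7 of 15 processings, the main one included. Most of these 7 could not move the main value, such as the median over probes or a looser filter, and left it at -1.03. The 2-fold count of Dcn rests on the clone probe. Dcn thus lay lower in the enriched environment pool in every processing, from -1.04 to -0.60, and reached 2-fold in only some of them.

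Bgn encodes biglycan, the closest relative of decorin, which can signal through Toll-like receptors when it is released from the matrix. Its brighter probe at chrX:68879864-68879923 had an intensity of 3490 ± 349 in the enriched and 3776 ± 378 in the standard environment pool, a difference of -0.50 ± 0.20. The dimmer one at chrX:68878335-68878394 gave 126 ± 13.0 in the enriched and 179 ± 18.2 in the standard environment pool, a difference of -0.88 ± 0.21, and the mean was -0.69 ± 0.15. On their brighter probes, which carry curated RefSeq accessions, Bgn lay above Dcn by 0.33 ± 0.29, a gap that does not exceed 2 technical errors. Aspn encodes asporin, which lacks the usual attachment site for a sugar chain and binds collagen and TGF-beta. The Aspn probe at chr13:49050987-49051046 had an intensity of 635 ± 63.6 in the enriched and 312 ± 31.4 in the standard environment pool, and levels of -0.63 and -1.27 in the same order. Its difference of 0.64 ± 0.20, or 1.56-fold higher, was the highest of the 9, and stayed above 0 in every processing, between 0.41 and 1.03.

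Ogn, the class III gene among the 9, encodes osteoglycin (mimecan), a short member that affects fibril thickness in skin and cornea. Its probe at chr13:49108057-49108116 had an intensity of 4398 ± 440 in the enriched and 13473 ± 1347 in the standard environment pool. Its levels were 2.16 in the enriched and 4.16 in the standard environment pool, a difference of -2.00 ± 0.20, or 4.00-fold lower. Like Kera and Fmod, Ogn stayed past 2-fold in all 15 processings.

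**Figure D2:**
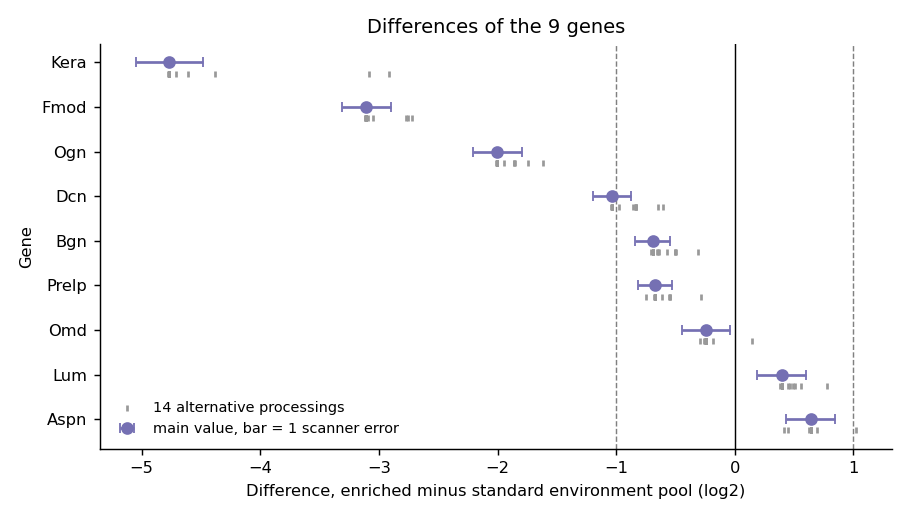
Difference (enriched minus standard environment pool, log2) of each gene, with a bar of 1 technical error from the scanner software (n = 1 array per pool) and a grey tick below for each of 14 alternative processings; dashed lines mark 2-fold. Kera, Fmod and Ogn stay left of the 2-fold line throughout, the Dcn ticks fall on both sides of it, and 1 Omd tick lies right of 0.

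In order, the differences ran from Kera through Fmod, Ogn, Dcn, Bgn, Prelp, Omd and Lum to Aspn, over a span of 5.41 on the log2 scale. Kera and Fmod were 1.66 apart, Fmod and Ogn 1.11, Ogn and Dcn 0.97, and Omd and Lum 0.64, each more than 2 technical errors. The gaps from Dcn to Bgn (0.34), Bgn to Prelp (0.02), Prelp to Omd (0.43) and Lum to Aspn (0.24) were not. The technical error leaves out the spread between probes of a gene, whose SD was 0.28 for Dcn and 0.27 for Bgn. Genes with 1 probe, such as Omd and Lum, give no such SD. Of all measured genes, 0.719% had a difference below that of Kera, 1.59% below Fmod, 3.09% below Ogn and 9.01% below Dcn, while 13.1% lay above Aspn and 24.3% above Lum.

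Genes of the family that lie side by side on chromosomes 10 and 13 did not all share a direction. Those on chromosome 1 all lay lower. In the annotation Dcn, Lum, Kera and Epyc follow each other on chromosome 10, and their differences were -1.03, 0.40, -4.77 and -0.14. The Kera and Lum probes are 40960 bases apart on mm7 and differed by -5.16 (Kera minus Lum) on the log2 scale. On chromosome 13, Ecm2, Aspn, Omd and Ogn gave -1.85, 0.64, -0.24 and -2.00, so the genes at either end of this cluster lay lower and Aspn did not. On chromosome 1, Optc, Prelp and Fmod gave -0.97, -0.67 and -3.11. The measured neighbours on either side, taken by order of start position, stayed within 2-fold, from Btg1 at -0.06 to Nol8 at 0.79, except Lax1 at 1.15. This order does not show whether a neighbour overlaps a cluster.

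The other genes of the family, which are not among the 9, lay on both sides of 0. Of 10 such genes, all measured, 7 lay below 0, 3 of them by 2-fold or more, none was 2-fold higher, and the median was -0.36 (-0.97 to 0.03 over the alternatives). The direction was not stable for 3 of them, since Epyc ranged from -0.25 to 0.25, Chadl from -0.33 to 0.13 and Tsku from -0.21 to 0.42 over the processings that measured them, and without scaling 5 of 10 lay below 0. Nepn, which encodes nephrocan, was at -4.52 in the enriched and -2.46 in the standard environment pool, a difference of -2.06 ± 0.24. Ecm2, a relative of decorin expressed in adipose and female reproductive tissue, differed by -1.85 ± 0.22, and its second probe, measured well above background in the standard environment pool only, had a lower signal in the enriched environment pool too. Chad, the cartilage protein chondroadherin, differed by -1.19 ± 0.21, and the eye protein gene Optc by -0.97 ± 0.27. Podn, which encodes podocan, was higher, at 0.94 ± 0.26. The remaining 5 lay between -0.42 for Nyx and 0.06 for Podnl1, with Chadl at -0.29, Epyc at -0.14 and Tsku at 0.03. Several of these family genes are dim, so the size of their differences depends on how background is removed. With the normexp background correction and the 75th percentile, Podn was at 0.31, Nepn at -1.24, Ecm2 at -1.26 and Optc at -0.60. In the standard environment pool Epyc, at a level of -5.12, lay near the lowest level well above background, -5.68. By class, 4 of 5 class II genes, 3 of 3 class III genes and 2 of 3 class I genes lay below 0. The same held for 3 of 4 class IV genes and 0 of 2 class V genes. Nepn and Ecm2, placed in no class here, lay below 0 too. Over all measured genes 47.7% lay below 0, and nothing is read from counts this small. The class III count includes Epyc, whose direction turned with the processing.

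The collagens on which these proteoglycans lie were higher in the enriched environment pool. Of 14 fibrillar and fibril-associated collagen genes 12 were higher by 2-fold or more and none was 2-fold lower, and the median was 1.89 (1.37 to 2.28). Col12a1 at 3.11, Col3a1 at 2.96 and Col6a3 at 2.78 were furthest above, and Col16a1 at 1.13, Col6a1 at 0.85 and Col11a1 at -0.61 lowest. Set against the collagen median, the difference of Kera was -6.66, that of Ogn -3.89, that of Dcn -2.92, that of Lum -1.49 and that of Aspn -1.25. All 14 collagens had a higher difference than Kera, Fmod, Ogn, Dcn, Bgn and Prelp, and 13 of 14 had a higher one than Omd, Lum and Aspn, Col11a1 being the exception. With 1 array a pool this gap could not be tested.

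Genes that build or finish the fibril and its sugar chains lay closer to 0 than the collagens. In fibril cross-linking and procollagen processing 4 of 15 measured genes passed 2-fold upward and none downward, at a median of 0.22, led by the lysyl oxidase-like gene Loxl2 at 2.65, the procollagen protease gene Adamts2 at 1.23 and Loxl4 at 1.08, with Bmp1 at -0.08, Loxl3 at -0.09 and P4ha1 at -0.53 at the other end. Chondroitin and dermatan sulphate synthesis had 3 of 23 genes past 2-fold upward and none downward, at a median of 0.15. Csgalnact1, which starts chondroitin chains, was at 1.89, the linkage enzyme gene B3galt6 at 1.81 and the epimerase-like gene Dsel at 1.40, while Chst3 at -0.75, Csgalnact2 at -0.62 and Fam20b at -0.46 were lowest. Keratan sulphate synthesis, of which Kera, Fmod and Lum are substrates, had 1 gene of 10 at least 2-fold higher, the sulphotransferase gene Chst1 at 1.20, and 1 lower, the sialyltransferase gene St3gal3 at -1.19, with a median of 0.17. Its other extremes were Fut8 at 0.68, St3gal1 at 0.56, St3gal2 at -0.32 and Chst4 at -0.39.

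**Figure D3:**
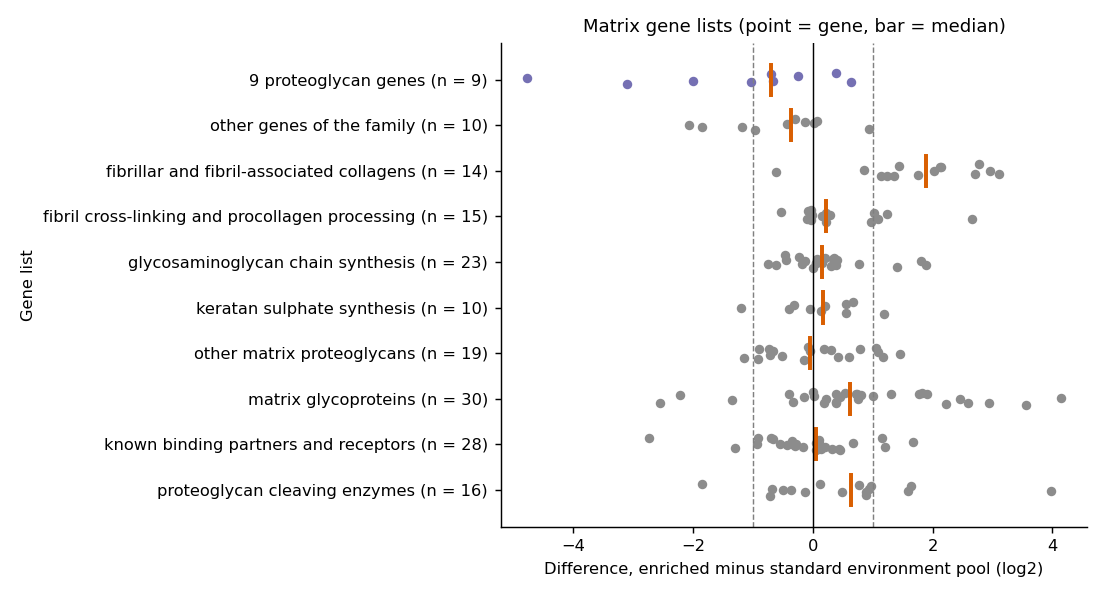
Difference (enriched minus standard environment pool, log2) of each gene measured on both arrays (points, with n per list) in 10 lists of matrix genes, with the median as a bar and dashed lines at 2-fold. The collagen median lies at 1.89 and that of the 9 proteoglycan genes at -0.69; the vertical scatter within a row carries no value.

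Proteoglycans outside the family were split. Of 19 measured genes 4 were at least 2-fold higher, the hyaluronan receptor gene Cd44 at 1.45, the syndecan gene Sdc1 at 1.17, the versican gene Vcan at 1.09 and the serglycin gene Srgn at 1.05. The glypican gene Gpc1 at -1.14 was at least 2-fold lower, followed by Sdc3 at -0.92 and Hapln4 at -0.90. The median of this list was -0.04 and lay on either side of 0 over the alternatives, between -0.30 and 0.35. Hapln1, a link protein gene, was well above background in the enriched environment pool only and at least 4.78-fold brighter there. Matrix glycoproteins had a median of 0.63, with 10 of 30 at least 2-fold higher, led by Fbn2 at 4.14, Tnc at 3.55 and Postn at 2.95, and 3 lower, Thbs4 at -2.56, Eln (elastin) at -2.22 and Matn2 at -1.34. The standard environment level of Fbn2 was -5.61, near the lowest level well above background on that array, -5.68, so the size of its difference is uncertain.

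Genes for proteins known to bind these proteoglycans showed no common direction, and those for cleaving enzymes and their inhibitors lay on both sides of 0. Among 28 measured ligands and receptors 3 were at least 2-fold higher, the collagen receptor gene Itga2 at 1.67, the decorin-binding receptor gene Met at 1.20 and the Toll-like co-receptor gene Cd14 at 1.16. Bmp6 at -2.74 and the TGF-beta gene Tgfb3 at -1.30 were at least 2-fold lower and Bmp2 was at -0.94. The median of these genes was 0.06, from -0.17 to 0.44 over the alternatives. Mstn, the muscle growth inhibitor myostatin, to which decorin binds, was well above background in the standard environment pool only, and in the enriched environment pool its signal was lower by at least 62.1-fold. Among 16 cleaving enzymes and their inhibitors 10 lay higher and 6 lower, beside 47.7% of all measured genes below 0. At least 2-fold higher were 3 of the 16 and at least 2-fold lower 1, beside 5.71% and 9.46% of all genes. The median was 0.63 (0.38 to 1.02 over the alternatives). Mmp3 at 3.98, Timp1 at 1.64 and Adamts15 at 1.59 were highest and Adamts8 at -1.86, Mmp9 at -0.71 and Mmp7 at -0.68 lowest. Mmp12, the macrophage elastase gene, was well above background in the enriched environment pool only and at least 7.55-fold brighter there.

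Of 89 measured genes in the lists of collagens, cross-linking, other proteoglycans, glycoproteins and fibroblast markers, those with a difference nearest to Dcn were Pdgfra at -1.02, Pi16 at -1.07 and Clec3b at -0.93. All 3 are in the resting fibroblast list, in which 4 of 8 genes lay above 0. This depends on the mean of the Dcn probes. On its brighter probe alone Dcn was at -0.83, and Hapln4 at -0.90 and Sdc3 at -0.92 lay nearer than those 3. The cell type lists outside this search also held near genes, such as the endothelial Tie1 at -1.05. Nearest to Ogn were Eln at -2.22, Thbs4 at -2.56 and Matn2 at -1.34. With 2 arrays this likeness is a distance between single differences, from 0.02 for Pdgfra to 0.66 for Matn2, and says nothing of cell type.

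Markers of several cell types that make these proteoglycans differed in the same pools, and their part in the differences was not tested. Some genes, such as Postn, Tnc and Thbs4, stand in more than 1 list. Resting fibroblast markers were even, 4 of 8 higher and 4 lower with a median of 0.19 (-0.31 to 0.57), from Col15a1 at 1.28, Dpt at 0.75 and Ly6c1 at 0.73 to Clec3b, Pdgfra and Pi16. They took 0.0294% of the signal in the enriched and 0.0251% in the standard environment pool. Activated fibroblast markers were higher in 5 of 7 genes, all 5 by at least 2-fold, with a median of 3.11, among them Lrrc15 at 3.96 and Cthrc1 at 3.47, while Acta2 at -0.15 and Fap at -0.30 were not. They took 0.0776% of the signal in the enriched and 0.0689% in the standard environment pool. Each such share, here and below, sums the intensities of all probes of a list. Its brightest probes weigh most, so it can stay near level while most markers of the list differ.

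Muscle markers ran from Ckm at -8.56, Myh2 at -8.47 and Mb at -8.40 to Myh4 at -6.74, Ryr1 at -5.82 and Tnni2 at -3.08. Of the 7 tendon and muscle connective tissue markers Thbs4 was lower by more than 2-fold, at -2.56. The tendon genes Tnmd and Mkx were well above background in the standard environment pool only. For Tnmd this was at least 5.72-fold over the enriched environment pool. Scx at -0.20, Egr1 at 0.40, Comp at 0.45 and Fbln7 at 0.54 were not 2-fold apart. The summed signal of the 7 markers was 0.0273% in the enriched and 0.0275% in the standard environment pool. Bone markers were lower in 3 of 3 genes measured on both arrays, Bglap at -6.82, Sost at -0.54 and Phex at -0.53, and Ibsp and Dmp1 were well above background in the standard environment pool only, by at least 14.98-fold and 5.32-fold over the enriched environment pool. Sp7 was well above background in the enriched environment pool only, with levels of -5.66 in the enriched and -5.93 in the standard environment pool. Its bound of 1.02-fold over the standard environment pool is too small to show a direction. Bglap has near-identical copies, so its probe may read more than 1 gene. Bone markers took 0.000343% of the signal in the enriched and 0.0139% in the standard environment pool. Of the corneal markers other than Kera, Aldh3a1 differed by -0.21 and Krt12 was not well above background on either array, Krt12 being the defining keratin of corneal epithelium.

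Cartilage markers were mixed, with Col2a1 at 1.24, Acan at -0.15, Col9a1 just short of 2-fold lower and Matn3 at -1.21, and Matn1 and Cnmd were not well above background on either array. In the enriched environment pool Matn3 at a level of -6.04 and Col9a1 at -6.00 were near the lowest level well above background, -6.20. The cartilage markers took 0.00316% of the signal in the enriched and 0.000944% in the standard environment pool. Adipocyte markers were higher in 4 of 4 genes, with Cfd at 3.11, Adipoq at 2.40, Plin1 at 1.63 and Fabp4 at 0.34. Lep was well above background in the enriched environment pool only, by at least 9.51-fold over the standard environment pool. The adipocyte markers took 0.468% of the signal in the enriched and 0.182% in the standard environment pool. Endothelial markers were lower in 5 of 5 genes, from Tie1 at -1.05, Tek at -0.88 and Cdh5 at -0.81 to Kdr at -0.70 and Pecam1 at -0.12, and took 0.00544% in the enriched and 0.00761% in the standard environment pool. Pericyte and smooth muscle markers ran from Tagln at 2.21 and Cspg4 at 0.42 to Pdgfrb at -1.18, Rgs5 at -1.31 and Des at -6.80, the last of which skeletal muscle also expresses, and took 0.0657% in the enriched and 0.108% in the standard environment pool. Carcinoma epithelium markers, led by Msln at 2.43, Cdh1 at 2.37 and Krt8 at 2.14, with Muc1 at 1.85, Krt19 at 1.84 and Krt18 at 1.59 lowest, took 0.892% in the enriched and 0.205% in the standard environment pool.

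**Figure D4:**
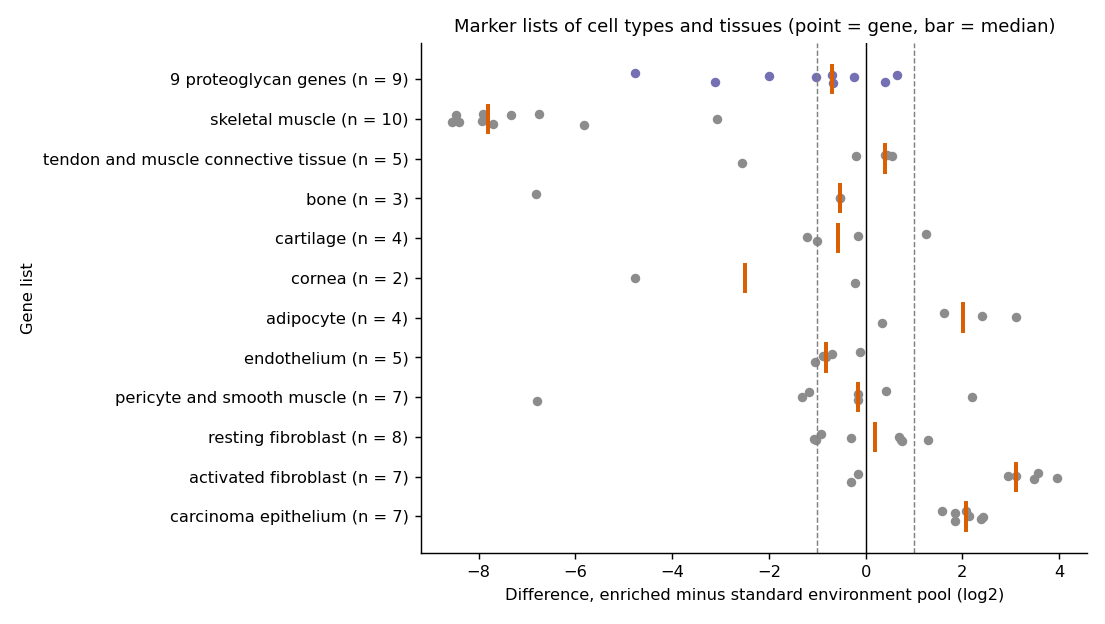
Difference (enriched minus standard environment pool, log2) of the 9 proteoglycan genes (top row) and of the markers of 11 cell types or tissues measured on both arrays (points, with n per list), with the median as a bar and dashed lines at 2-fold. Muscle markers lie at a median of -7.80, activated fibroblast markers at 3.11 and resting fibroblast markers at 0.19.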

How the data were processed

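RNA pooled from 6 tumours per housing was labelled with Cy3 and hybridised to 1 array per pool, per the labels' protocols. The deposited scanner values are linear intensities of single spots. Per the file headers, background was subtracted and a spatial trend removed, and the submitters' processing notes name Agilent Feature Extraction 10.7.1.1 for this. A deposited table of 1 log2 value per probe, whose scaling and centring are unstated, was used as an alternative. Its columns had medians of 8.56 (enriched) and 8.54 (standard) and correlated with the scanner values at r = 1.00 on both arrays. This gives the direction of the values but does not show how they were scaled.

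Levels were log2 of the processed intensity over the array's 75th percentile, without 1639 control spots and without outlier spots (70 in the enriched, 66 in the standard pool). Probes well above background on both arrays (30298 of 41161) were used and the probes of a gene averaged. Symbols of 22951 probes came through RefSeq accessions (GRCm38.p6 table), and 18223 probes kept the file's name or an older alias of it. Probe positions are those of the design on mm7, and the sources used here do not give their exon or UTR. With 1 array per pool no p-value was computed, and a 2-fold difference was counted. Background removal affects dim spots most. The median SD was 0.17 between different probes of a gene and 0.06 (enriched) and 0.05 (standard) between repeated spots, which cover technical error only. A gene well above background on 1 array only was given a bound, against the higher of its own signal and the lowest signal well above background on the other array.

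The members and lists were chosen with earlier results of these data known. Named were the 9 genes, the rest of the family and, per list, the 3 highest and 3 lowest genes and any 2-fold gene against the list's median. The steps were tested on simulated data. Tools were Python 3.11.15, pandas 2.3.3, R 4.3.3 and limma 3.58.1 (normexp, offset 50).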

Additional observations from a re-analysis of the deposited data

How the results depend on the processing

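In 14 alternative processings Kera, Fmod and Ogn stayed lower by 2-fold or more in the enriched environment pool, and Lum and Aspn stayed higher. Some of the 14, such as a looser filter on dim probes, left all 9 genes unchanged and so cannot test their stability. Without scaling, the differences were -4.38 for Kera, -2.72 for Fmod, -1.62 for Ogn, -0.65 for Dcn, -0.31 for Bgn, -0.28 for Prelp, 0.15 for Omd, 0.78 for Lum and 1.03 for Aspn, with a median of -0.31 (-0.69 with scaling), because the array shift of 0.39 was left in. The counts of genes at least 2-fold lower and higher were then 1211 and 2904. Normexp background correction with the 75th percentile gave -0.83 for Dcn, -2.77 for Fmod, 0.41 for Aspn and -3.09 for Kera, with 668 genes higher and 1991 apart in all. With quantile scaling added it gave -0.60 for Dcn, -1.74 for Ogn, -0.49 for Bgn, -2.75 for Fmod and -2.91 for Kera, with 1152 genes lower, 765 higher and 1917 apart in all. Dcn was at -0.86 under quantile normalization, -0.84 in the authors' deposited table and -0.83 on its brightest or its curated RefSeq probe, where Bgn was at -0.50 (the RefSeq choice was made after seeing the data). The number of genes at least 2-fold lower ended at 3 of the 9 wherever Dcn was above -1. Without a filter on dim probes 3795 genes were lower and 5468 apart in all, as more genes entered. Otherwise the cause was not tested. No paired analysis was possible because each housing had 1 array. Signal over background limits Kera most, and 1 array per pool limits every value.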
